A study of Mus musculus with 8 samples.

Results

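The wild-type adult mouse left ventricle was described here from 4 RNA-seq libraries, WT1 to WT4, which were all the libraries labelled WT among the 8 of the series. The tissue was the left ventricle of 8 to 12 week old FVB mice, the wild-type littermates of mice that lack RE1, a regulatory element of the super enhancer at the Nppa-Nppb locus. The RE1-deficient libraries were not analysed here, and no comparison between genotypes was made. The breeding protocol also names Cre and reporter lines on the FVB/N background, and the labels do not say whether these littermates carried such alleles. Nor do the labels state whether each library is a separate mouse, so the spread between libraries may in part be technical. Each library was made from 900 ng of total RNA with a stranded total RNA kit and read in pairs of 125 bases. The 4 libraries held 34742840, 26574894, 20284865 and 24167894 counts in the order WT1 to WT4, and between 22693 and 24142 of 41128 genes had a count in a library. A check for copies of 1 library gave a mean chi-square per gene of 7.44 to 19.6 over the 6 pairs of libraries, where counting error alone gives about 1.

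The ventricular wall contracts when myosin heads of the thick filament pull on actin filaments, a cycle that calcium switches on through troponin and tropomyosin. Calcium leaves the sarcoplasmic reticulum through the ryanodine receptor and is pumped back by SERCA under the control of phospholamban. The energy comes mainly from fatty acid oxidation and oxidative phosphorylation, and many of the proteins involved exist as heart and non-heart forms encoded by separate genes. Which of such paralogous genes is used is a hallmark of chamber, age and stress in the rodent heart.

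Of all counts, nuclear protein-coding genes held 57.3% ± 0.73 (SD, n = 4) and the 13 protein genes of the mitochondrial chromosome 6.94% ± 0.25. The 2 mitochondrial ribosomal RNAs held 9.69% ± 0.85, and the whole mitochondrial chromosome 16.8% ± 0.93. The signal recognition particle RNA genes Rn7s1, Rn7s2 and Rn7s6 held 11.6% ± 0.91, against 0.551% ± 0.060 for small nuclear RNAs. Long intergenic RNAs made up 1.05% ± 0.043 of the counts. A single gene, Ttn, which encodes the giant sarcomeric spring titin, held 6.11% ± 0.16 of all counts, with 5.91%, 6.26%, 6.06% and 6.20% in WT1 to WT4. Unprocessed pseudogenes held 5.93% ± 0.21 of the counts, of which 9 genes whose shared stretches, be they many or few, belong mainly to a mitochondrial gene accounted for 5.57% ± 0.20. Near-identical copies, chosen after their values were seen, carried near-identical values: mt-Co3 had 11703 CPM (a library's counts scaled to 1000000 in all) in WT1, and its nuclear copy Gm28437 had 11713 CPM in the same library. Rn7s1 and Rn7s2 likewise had 48636 and 48640 CPM in WT1, and 1324804 and 1324831 counts in WT2. Whether the same reads were counted for both copies was not tested. Sums over such genes, as the 11.6% of the signal recognition particle RNA genes, may therefore hold reads more than once. Values of genes with such copies are therefore uncertain.

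To compare genes with each other, counts were divided by the length of the merged exons and scaled to a sum of 1000000 over protein-coding genes (TPM). On this scale the transcriptome was concentrated in few genes. The 42 highest protein-coding genes made 50% of the TPM, and 33.3% ± 0.87 of it came from the 13 mitochondrial genes. Among nuclear genes alone, 243 made 50% of the nuclear TPM and 4474 made 90%. The 10, 20, 50 and 100 highest nuclear genes held 15.6%, 21.3%, 30.6% and 38.4% of it. Of 21384 nuclear protein-coding genes, 12505 reached a mean of 1 TPM, 7265 reached 10 TPM, 911 reached 100 TPM and 81 reached 1000 TPM, while 4267 had no count in any of the 4 libraries. At the other end of the range, 3 of 1020 olfactory receptor genes and none of 291 vomeronasal receptor genes averaged 1 TPM. Among housekeeping classes, 81 of 83 cytosolic ribosomal protein genes averaged at least 1 TPM, and their sum was 20201 ± 319 TPM, which is 3.03% of the nuclear TPM.

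The highest nuclear gene in every library was Myh6, the alpha myosin heavy chain that dominates the adult rodent ventricle, with 19947, 19984, 20766 and 21503 TPM in WT1 to WT4. Among genes with a known product it was followed by the oxygen store of muscle, Mb (myoglobin, 12971 ± 262 TPM), and by Actc1 (cardiac alpha-actin, 12479 ± 478 TPM). Myl2, the ventricular regulatory light chain, averaged 9499 ± 525 TPM. Fabp3, the heart fatty acid binding protein, and Atp2a2, the cardiac SERCA pump, were nearly level at 7286 ± 200 and 7267 ± 233 TPM, a gap smaller than either SD. Pln, which encodes phospholamban, had 5637, 5559, 5612 and 5617 TPM. Further down the first 20 stood Slc25a4, the heart ADP/ATP carrier, at 4803 ± 184 TPM, then the troponin genes Tnnc1 at 4636 ± 114 TPM and Tnni3 at 4508 ± 178 TPM, and Myl3, the ventricular essential light chain, at 4463 ± 165 TPM. Their order is not resolved, since neighbours from Tnnc1 to Myl3 differed by less than the larger of their SDs. Atp5a1, a catalytic-head subunit of ATP synthase, averaged 4142 ± 128 TPM, the beta myosin heavy chain Myh7 3637 ± 151 TPM, the myosin binding protein Mybpc3 3426 ± 155 TPM and the sarcomeric mitochondrial creatine kinase Ckmt2 3329 ± 339 TPM. The first 20 also held 3 globin genes of red cells, Hbb-bs at 3672 ± 576 TPM, Hba-a2 at 3447 ± 581 TPM and Hba-a1 at 3269 ± 544 TPM. All of these were lowest in WT1, and Hba-a1 and Hba-a2 share so much sequence that their separate values are uncertain.

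The second highest nuclear entry was Gm20594, a provisional gene model of 449 bases on chromosome 6 (79817916 to 79818364, GRCm38) without an assigned role. It had 17167, 13850, 17948 and 17150 TPM, lowest in WT2. The mitochondrial large ribosomal RNA, mt-Rnr2, a gene also chosen after its values were seen, was lowest in WT2 as well, with 90718, 76760, 93030 and 86733 CPM. The length correction decides these ranks. Ttn was first among nuclear genes by CPM (61093 ± 1575) but position 27 by TPM (2566 ± 58.0), since its merged exons span 116825 bases. The reverse held for Cox7a1, of 535 bases, which stood at position 175 by CPM (351 ± 13.9) and 21 by TPM (3215 ± 86.0).

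**Figure D1:**
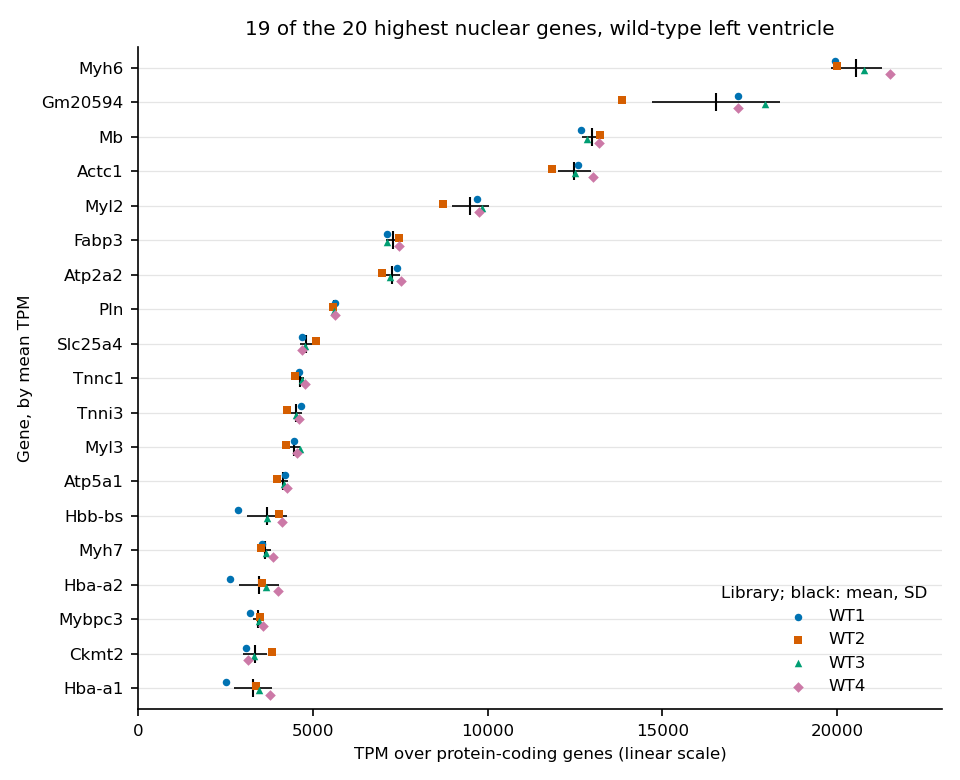
TPM of 19 of the 20 highest nuclear protein-coding genes in WT1 to WT4 (coloured points), with the mean and SD over the 4 libraries in black, on a linear axis. Myh6 lies at 19947 to 21503 TPM in all 4 libraries, while Gm20594 has WT2 at 13850 TPM, below the other 3 libraries.

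The mitochondrial protein genes were led by the core subunits of cytochrome c oxidase. mt-Co1 had 110151, 107309, 113242 and 108684 TPM in WT1 to WT4, which lie within a few percent of each other. mt-Co3 averaged 74310 ± 3109 TPM, mt-Co2 49776 ± 1904 TPM and mt-Atp6, an ATP synthase subunit, 31661 ± 1142 TPM. For these 3 genes, 99.9%, 99.5% and 99.5% of their 100-base stretches also occur in a nuclear copy, so their levels are uncertain, as are those of mt-Nd3 (97.6%), mt-Nd4l (98.5%), mt-Nd4 (60.8%) and in part mt-Co1 (30.8%). Cytochrome b (mt-Cytb), with no such copy, averaged 16310 ± 741 TPM. The complex I genes spanned 15147 ± 1154 TPM for mt-Nd1, 13653 ± 868 TPM for mt-Nd3, 4891 ± 166 TPM for mt-Nd4, 4133 ± 483 TPM for mt-Nd2, 2705 ± 400 TPM for mt-Nd5, 2458 ± 394 TPM for mt-Nd6 and 1692 ± 190.2 TPM for mt-Nd4l. mt-Atp8 averaged 5972 ± 842 TPM. mt-Nd6 is the only protein gene on the opposite strand of the chromosome, and its values of 2745, 2846, 2167 and 2074 TPM were higher in WT1 and WT2 than in WT3 and WT4.

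Paralogue use was read within each library as the share of the first gene in the TPM of both, for 45 pairs. The first gene was the higher in 4 of 4 libraries for 43 pairs, its share reached 90% for 24 pairs, and the SD of a share over the 4 libraries had a median of 0.687 percentage points. With 4 libraries the two-sided exact sign-flip permutation test cannot go below p = 0.125 (0.131 after Benjamini-Hochberg adjustment over the 42 pairs whose second gene had a count in every library), so no pair could pass 0.05, and the order is given by direction and spread alone.

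**Figure D2:**
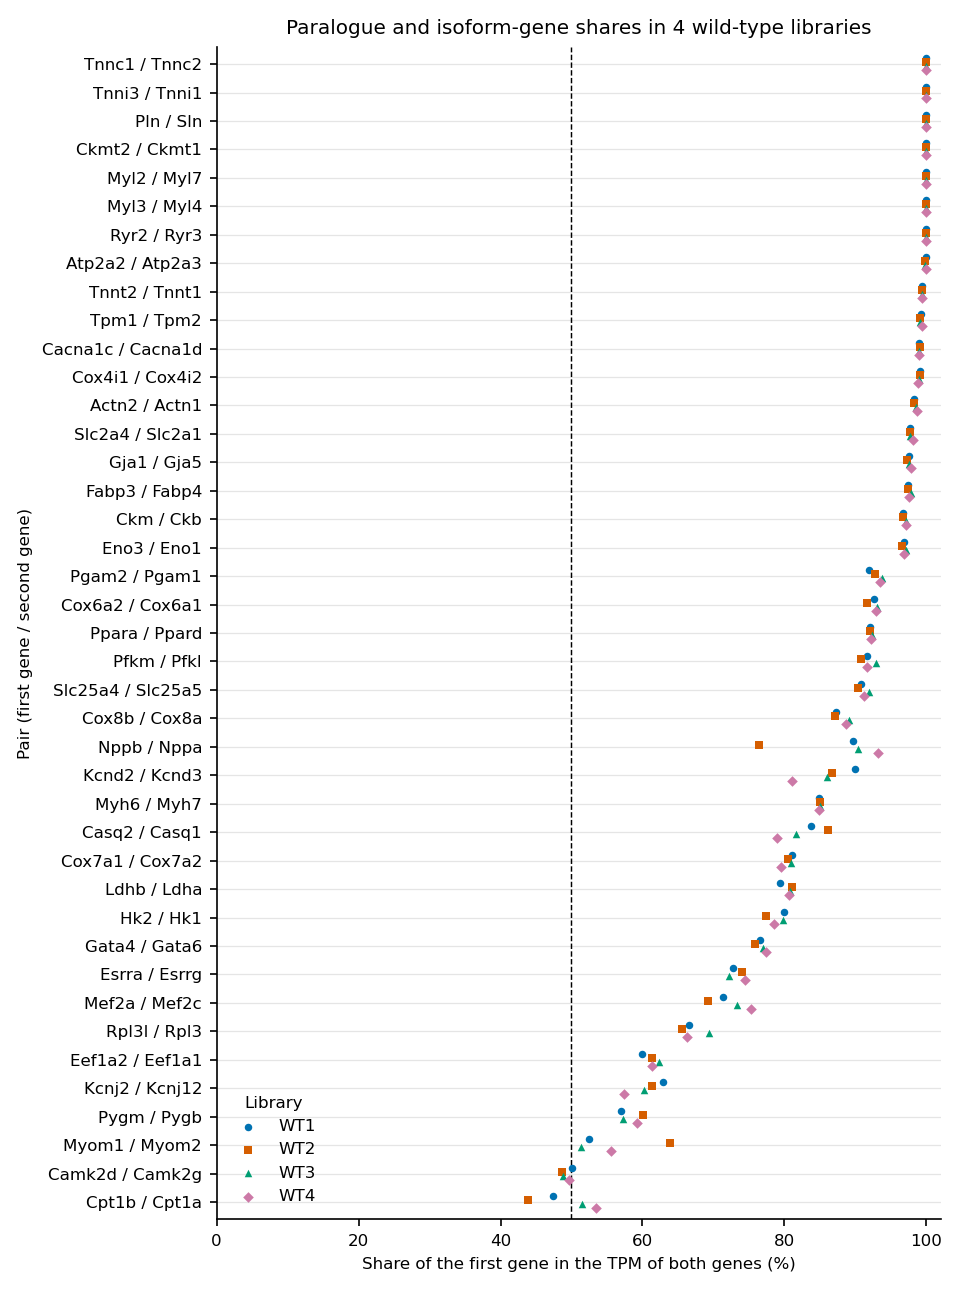
Share of the first gene in the summed TPM of each of 41 of the 45 gene pairs, in percent, for WT1 to WT4; the dashed line marks 50%. Most pairs have 4 points on top of each other, while the pairs of Nppb with Nppa and of Myom1 with Myom2 each have WT2 away from the other libraries.

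In the thick filament, Myh6 made 84.9%, 85.1%, 85.0% and 84.8% of the TPM of Myh6 and Myh7 in WT1 to WT4 (85.0% ± 0.11), the same in all 4 libraries to within a percentage point. The 2 genes are neighbours on chromosome 14 and share sequence: 10.04% of the 100-base stretches of Myh6 occur in Myh7. Myh6 counts in such stretches, at their proportion of its length, would amount to 2828 CPM, or 44.3% of the 6385 ± 274 CPM of Myh7, so the level of Myh7 is uncertain. Together these genes held 83.0% and 14.7% of the TPM of 14 myosin heavy chain genes, of which 11 averaged at least 1 TPM. The atrial light chains were close to absent from these ventricles. Myl7, the atrial regulatory light chain, had 12 counts over the 4 libraries together, and Myl2 made 99.99% ± 0.0098 of the pair. Myl4, the atrial essential light chain, had 106 counts together, and Myl3 made 99.98% ± 0.0090 of that pair. In the M-band that cross-links thick filaments, Myom1 made 52.5%, 63.8%, 51.3% and 55.5% of the TPM of Myom1 and Myom2. WT2 stood above the other 3 libraries, with Myom2 at 313 TPM there and at 503, 558 and 493 TPM in WT1, WT3 and WT4.

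In the thin filament, Actc1 ranged over 11842 to 12999 TPM. Acta1, the skeletal actin gene that is re-expressed in stressed rodent ventricle, had 903, 2603, 855 and 934 TPM in WT1 to WT4. WT2 lay above the other 3 libraries, which were close to each other. Troponin use was close to exclusive. Tnni1, the slow skeletal troponin I of the fetal heart, had 6 counts over the 4 libraries, and Tnnc2, the fast skeletal troponin C, had 0 of 105770493 counts, which allows up to 0.0284 CPM (3 counts). Such limits cover counting error only. Tnnt2, the cardiac troponin T, made 99.4% ± 0.022 of the TPM of Tnnt2 and Tnnt1. Tpm1 made 99.2% ± 0.095 of the tropomyosin pair Tpm1 and Tpm2, and Actn2, the Z-disc alpha-actinin, 98.4% ± 0.21 of the pair with non-muscle Actn1. Among 30 Z-disc genes the highest were Tcap (telethonin, which ties titin to the Z-disc) at 3181, 3061, 2416 and 2347 TPM and the small heat shock protein Cryab at 2115 ± 73.7 TPM. Tcap was higher in WT1 and WT2 than in WT3 and WT4.

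The 250 bases before the RefSeq transcript start (GRCm38.p6) of both myosin genes and both actin genes are shown because these contractile genes stand among the highest or the most variable. Capitals mark matches, on either strand, to the TATA box searched as TATAAA, to the M-CAT element searched as CATTCC, to the CArG box bound by serum response factor, and to GAANNTTC, the core of the heat shock element. Among all 32851 promoter windows of the same length in the table, 12.4% hold TATAAA, 12.6% CATTCC, 1.47% a CArG box and 6.69% GAANNTTC. The windows are chr14:54966608-54966857 for Myh6, chr14:54994627-54994876 for Myh7, chr2:114052876-114053125 for Actc1 and chr8:123894776-123895025 for Acta1, all on the minus strand. These RefSeq starts lie 320, 0, 673 and 24 bases from the gene starts of the annotation used for the levels, in the same order. The Myh6 window lies within the annotated gene, which reaches base 54966927.
Myh6: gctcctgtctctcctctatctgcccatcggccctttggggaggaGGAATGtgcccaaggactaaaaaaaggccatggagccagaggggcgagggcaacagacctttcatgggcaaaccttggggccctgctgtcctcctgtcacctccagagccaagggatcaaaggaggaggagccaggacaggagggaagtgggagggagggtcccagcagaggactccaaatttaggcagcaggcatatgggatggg
Myh7: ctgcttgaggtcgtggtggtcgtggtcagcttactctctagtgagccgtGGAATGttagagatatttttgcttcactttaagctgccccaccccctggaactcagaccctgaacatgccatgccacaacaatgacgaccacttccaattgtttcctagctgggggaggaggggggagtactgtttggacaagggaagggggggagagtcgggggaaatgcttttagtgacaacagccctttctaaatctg
Actc1: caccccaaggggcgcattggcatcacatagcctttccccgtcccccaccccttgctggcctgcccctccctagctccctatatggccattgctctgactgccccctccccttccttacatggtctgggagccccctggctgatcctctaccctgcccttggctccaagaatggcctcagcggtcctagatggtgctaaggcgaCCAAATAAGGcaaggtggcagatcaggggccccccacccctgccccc
Acta1: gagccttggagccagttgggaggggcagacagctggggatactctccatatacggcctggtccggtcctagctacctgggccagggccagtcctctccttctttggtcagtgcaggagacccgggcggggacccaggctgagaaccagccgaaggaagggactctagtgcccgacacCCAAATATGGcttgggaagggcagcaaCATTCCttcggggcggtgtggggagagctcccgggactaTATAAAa
Both myosin windows held a reverse-strand M-CAT match, 206 to 201 bases before the start in Myh6 and 201 to 196 bases before it in Myh7. Both actin windows held a CArG box, CCAAATAAGG at 47 to 38 bases before the start in Actc1 and CCAAATATGG at 73 to 64 bases before it in Acta1, and Acta1 also held TATAAA and CATTCC. Without gaps, the best alignment of the myosin windows had 76 of 238 bases identical and that of the actin windows 81 of 225. Among the 77 of the 100 highest nuclear genes with a window, 4 held a CArG box, 7 held TATAAA, 12 held CATTCC and 6 held GAANNTTC. Over all 27025 genes with a window, the shares were 1.62%, 14.3%, 14.4% and 7.73% in the same order. A match describes the letters only and is not evidence of binding.

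In the calcium cycle, Atp2a2 made 99.88% ± 0.0078 of the TPM of Atp2a2 and Atp2a3, and Ryr2, the cardiac ryanodine receptor, 99.93% ± 0.012 of the TPM of Ryr2 and Ryr3 at a level of 562 ± 20.3 TPM. Sln, the atrial SERCA regulator sarcolipin, had 3 counts over the 4 libraries. The exons of Pln overlap annotated exons of a gene on the opposite strand over 64.7% of their length, and the sources used here do not give the strand setting of the authors' counting. Casq2, the calcium buffer of the cardiac reticulum, made 83.7%, 86.1%, 81.6% and 78.9% of the TPM of both calsequestrins. The rest was the skeletal form Casq1, whose 128, 108, 152 and 189 TPM were highest in WT4. Camk2d and Camk2g, the CaM kinase II genes of heart, were level: Camk2d made 50.1%, 48.6%, 48.8% and 49.7% of their TPM and was higher in 1 of 4 libraries. Under the length of the longest transcript its share was 69.6%, so no order can be given. Slc8a1, the sodium-calcium exchanger, averaged 91.6 ± 5.3 TPM and made 89.3% of its family.

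Among membrane channels, Cacna1c, the pore of the L-type calcium channel, made 99.0% ± 0.087 of the TPM of Cacna1c and Cacna1d. Scn4a, the skeletal muscle sodium channel, was detected, with 22.2, 28.7, 27.5 and 28.6 TPM, lowest in WT1. Kcnd2, a pore subunit of the fast transient outward current of rodent heart, made 89.9%, 86.6%, 86.1% and 81.1% of the TPM of Kcnd2 and Kcnd3. Kcnj2 made 60.5% ± 2.3 of the inward rectifier pair Kcnj2 and Kcnj12. The highest of 26 potassium channel genes were Abcc9, the sulphonylurea receptor subunit of KATP channels that pericytes also express, at 310 ± 10.8 TPM, and Kcnip2, the partner of Kv4 channels, at 186 ± 6.8 TPM. Gja1 (connexin 43, the ventricular gap junction protein) made 97.6% ± 0.23 of its pair with Gja5 (connexin 40 of atria and conduction fibres). Of the receptors, the muscarinic gene Chrm2 was highest at 109 ± 5.0 TPM.

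In energy metabolism the muscle or heart form led in nearly every pair. Ckm made 96.9% ± 0.24 of the TPM of Ckm and Ckb. The mitochondrial form Ckmt2 stood above both with 3069, 3815, 3300 and 3131 TPM, highest in WT2. Ckmt1, the ubiquitous form, had 16 counts together. Slc25a4 made 91.1% ± 0.67 of the TPM of both ADP/ATP carriers Slc25a4 and Slc25a5. The nuclear subunits of cytochrome c oxidase that exist as heart and liver forms were used unequally. Cox6a2 made 92.6% ± 0.62 of its pair, Cox8b 88.0% ± 0.98 and Cox7a1 80.5% ± 0.69, so that the liver-form gene Cox7a2 still reached 776 ± 23.5 TPM. Summed by complex, genes named Nduf (complex I) had 17374 ± 244 TPM, Cox4 to Cox8 (complex IV) 18013 ± 290 TPM, Atp5 (ATP synthase) 16340 ± 254 TPM, Uqcr (complex III) 7800 ± 146 TPM and Sdh (complex II) 2832 ± 66.7 TPM.

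Glucose handling showed both strict and mixed use. Slc2a4, the insulin-responsive transporter GLUT4, made 97.8% ± 0.24 of the TPM of Slc2a4 and Slc2a1. Eno3 made 96.8% ± 0.22 of the enolase pair with Eno1, Pgam2 93.0% ± 0.82 of the pair with Pgam1 and Pfkm 91.8% ± 0.86 of the pair with Pfkl. Hk2 made 78.9% ± 1.2 of the hexokinase pair with Hk1, but 35.3% when the median coding transcript was used as the length. Aldoa made 99.9% of the aldolase family at 2537 ± 24.6 TPM. The heart subunit of lactate dehydrogenase, Ldhb, made 80.5% ± 0.72 of the TPM of Ldhb and Ldha. Glycogen phosphorylase was split, with Pygm at 58.4% ± 1.5 of the TPM of Pygm and Pygb.

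In fatty acid metabolism, Fabp3 made 97.6% ± 0.17 of the TPM of Fabp3 and Fabp4, a form of adipocytes and capillary endothelium. Acadm and Acadl, which start the oxidation of medium and long chains, averaged 826 ± 42.2 and 687 ± 13.1 TPM and led 10 acyl-CoA dehydrogenase genes, all of which reached 1 TPM. Cpt2, the inner-membrane carnitine palmitoyltransferase, averaged 232 ± 6.3 TPM. Its outer-membrane partner genes were low and level: Cpt1b, the muscle form, had 17.4, 17.5, 17.8 and 22.2 TPM and made 47.4%, 43.8%, 51.5% and 53.5% of the TPM of Cpt1b and Cpt1a. In the annotation used for lengths, 81.4% of the exon bases of Cpt1b also lie in the read-through model Gm44502 on the same strand, which has no row in the table analysed here, and whether this lowered the counts of Cpt1b was not tested. Pdk4, which shuts carbohydrate out of the citric acid cycle in fasting, had 147, 155, 260 and 223 TPM, higher in WT3 and WT4.

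Among transcription factors, levels lay far below those of the contractile genes. Gata4 averaged 66.8 ± 3.5 TPM and made 76.7% ± 0.70 of the TPM of Gata4 and Gata6. Nkx2-5 averaged 58.2 ± 2.8 TPM and Tbx20 49.5 ± 4.1 TPM, which was 58.7% of the 14 T-box genes. Tead1, which binds the M-CAT element, made 78.5% of the TEAD genes at 48.5 ± 4.6 TPM. Srf, the factor of the CArG box, averaged 92.8 ± 7.2 TPM. Mef2a made 72.3% ± 2.6 of the TPM of Mef2a and Mef2c. Irx4, restricted to ventricles in the mouse, had 39.8, 39.1, 41.4 and 35.4 TPM and made 60.8% of the Iroquois genes. Of the regulators of mitochondrial genes, Ppargc1a averaged 81.1 ± 11.1 TPM and Esrra 68.3 ± 3.4 TPM, Esrra made 73.4% ± 1.1 of its pair with Esrrg, and Ppara made 92.2% ± 0.17 of its pair with Ppard.

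The natriuretic peptide genes, the targets of the super enhancer that the series studies, were unlike most pairs in their spread. Nppb had 656, 439, 632 and 1118 TPM in WT1 to WT4, and Nppa had 75.5, 135, 67.6 and 82.6 TPM. Nppb was highest in WT4 and lowest in WT2, and Nppa was highest in WT2. Nppb made 89.7%, 76.4%, 90.3% and 93.1% of their summed TPM (87.4% ± 7.5), the largest SD of the 45 pairs. The exons of Nppa overlap an opposite-strand gene, Gm13054, over 61.5% of their length, and the counts of Gm13054 amounted to 0.890% of those of Nppa. Their 250-base windows, chr4:147985650-147985899 for Nppb and chr4:148000472-148000721 for Nppa, both on the plus strand, are shown because the pair lies side by side and WT2 was lowest for Nppb and highest for Nppa.
Nppb: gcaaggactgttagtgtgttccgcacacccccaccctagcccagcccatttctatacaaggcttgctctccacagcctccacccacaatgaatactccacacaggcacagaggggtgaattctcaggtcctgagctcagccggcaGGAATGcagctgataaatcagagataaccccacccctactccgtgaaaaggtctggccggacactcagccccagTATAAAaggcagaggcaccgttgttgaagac
Nppa: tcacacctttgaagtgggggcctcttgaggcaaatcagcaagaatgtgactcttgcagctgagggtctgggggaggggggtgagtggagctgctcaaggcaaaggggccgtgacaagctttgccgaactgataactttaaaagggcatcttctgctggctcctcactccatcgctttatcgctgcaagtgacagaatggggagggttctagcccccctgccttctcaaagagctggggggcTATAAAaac
Nppb held TATAAA at 31 to 26 bases and a reverse-strand M-CAT match at 105 to 100 bases before the start. Nppa held TATAAA at 9 to 4 bases before its start. The RefSeq start of Nppb lies 112 bases inside the annotated gene, and that of Nppa is the annotated gene start. Neither window held a CArG box or GAANNTTC, and the best ungapped alignment had 63 of 205 bases identical.

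Translation showed muscle forms beside ubiquitous ones. Eef1a2, the elongation factor 1A of muscle and neurons, made 61.2% ± 0.99 of the TPM of Eef1a2 and Eef1a1, and Rpl3l, the muscle paralogue of ribosomal protein L3, 66.9% ± 1.7 of the TPM of Rpl3l and Rpl3. Both shares fell under 50% when the median coding transcript set the length, to 35.2% and 45.3%, so their order rests on the length used.

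Of 5311 long non-coding RNA genes, 147 averaged 100 counts, and the 5 highest held 75.9% of the long non-coding counts. Malat1, the nuclear speckle RNA, had 7909 ± 356 CPM, and Neat1, the scaffold of paraspeckles, 986 ± 120 CPM. 1700020I14Rik followed at 309 ± 9.8 CPM, Kcnq1ot1, the imprinted antisense RNA of Kcnq1, at 143 ± 9.1 CPM and Gm26917 at 137 ± 7.2 CPM. On chromosome 17, Gm26917 (39843013 to 39846341) lies beside Gm42418 (39846958 to 39848788) on the same strand. The part of ribosomal RNA in the counts of Gm26917 was not tested.

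The labelled tissue was checked against marker lists for 24 cell types. All 12 cardiomyocyte markers were detected, and their summed TPM was 85314, 83369, 86464 and 88568 in WT1 to WT4. The 6 ventricular genes, among them Myl2 and Irx4, were all detected as well. Of 8 atrial markers, 6 averaged at least 1 TPM, with a sum of 98.6, 161, 90.2 and 110 TPM that was mostly Nppa, and Bmp10, an atrial ligand, averaged under 0.1 TPM. Detection alone hardly separates the chambers, since most atrial markers passed it too, among them Stard10 at 16.7 TPM. The match to the label of ventricle rests mainly on Myl2, which made 9499 of the 10049 TPM of the ventricular sum. Against it, the atrial light chain genes Myl7 and Myl4 had 12 and 106 counts over the 4 libraries. No list compared left with right ventricle, so the side was not checked. In bulk tissue fewer cells of a type and less RNA per cell cannot be told apart, so the sums below are levels in tissue RNA. The 14 endothelial genes summed to 1347 ± 51.1 TPM, led by the water channel Aqp1 at 304 ± 22.1 TPM. The 12 fibroblast genes summed to 1953 ± 122 TPM, of which the actin-severing protein Gsn made 1258 ± 70.4 TPM and the matrix proteoglycan Dcn 282 ± 4.9 TPM. The median gene averaged 27.4 TPM in the fibroblast list and 79.2 TPM in the endothelial list, so the sums do not order these cell types. The 7 pericyte genes summed to 955 ± 45.2 TPM, led by Rgs5 at 448 ± 23.9 TPM and by Abcc9, which cardiomyocytes also express. The smooth muscle list summed to 396, 343, 337 and 296 TPM, led by Acta2. Macrophage markers summed to 456, 640, 438 and 450 TPM. WT2 was set apart, with Lyz2 at 174, 286, 170 and 176 TPM.

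Blood was present in every library. The erythroid list, mostly globins, summed to 10021, 13721, 13274 and 14684 TPM, lowest in WT1. Platelet markers summed to 30.3, 36.9, 36.9 and 37.6 TPM, lowest in WT1 too. Neutrophil markers summed to 3.27, 15.7, 1.997 and 10.05 TPM, the widest range relative to its level of the 24 lists, while T cell markers summed to 2.52 ± 0.97 TPM and none of the 7 averaged 1 TPM. The skeletal muscle list summed to 2322, 4132, 2300 and 2417 TPM, mostly Acta1 and Ckm, and 5 of its 13 genes averaged at least 1 TPM. The median gene of this list averaged 0.832 TPM, and the 3 that averaged under 0.1 TPM were Tnnc2, Pvalb and Myog. Conduction markers summed to 17.8 ± 1.9 TPM with Tbx3 and Hcn4 highest, mesothelial markers to 8.82, 4.52, 10.5 and 21.7 TPM, and white adipocyte markers to 2.94, 6.76, 2.79 and 13.3 TPM. Both of these lists were highest in WT4. Of the brown adipocyte list Cidea alone was detected, at 30.7 TPM, and Ucp1 averaged under 0.1 TPM. Proliferation genes summed to 10.5 ± 1.6 TPM. Valve and cartilage-like genes (7.17 ± 0.98 TPM), mast cell genes (4.398 ± 0.85 TPM), Schwann and neuronal genes (11.8 ± 1.9 TPM), B and plasma cell genes (11.9 ± 2.3 TPM), endocardial genes (67.5 ± 6.8 TPM) and lymphatic endothelial genes (147 ± 14.8 TPM) completed the lists. All 4 libraries carried transcripts of the Y-linked genes Ddx3y (83.6 ± 2.4 TPM) and Eif2s3y (46.2 ± 2.3 TPM). Xist, the RNA that silences an X chromosome in female cells, had 1.41, 1.34, 1.58 and 0.935 TPM, and 11.5% of its exon bases overlap an opposite-strand gene.

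**Figure D3:**
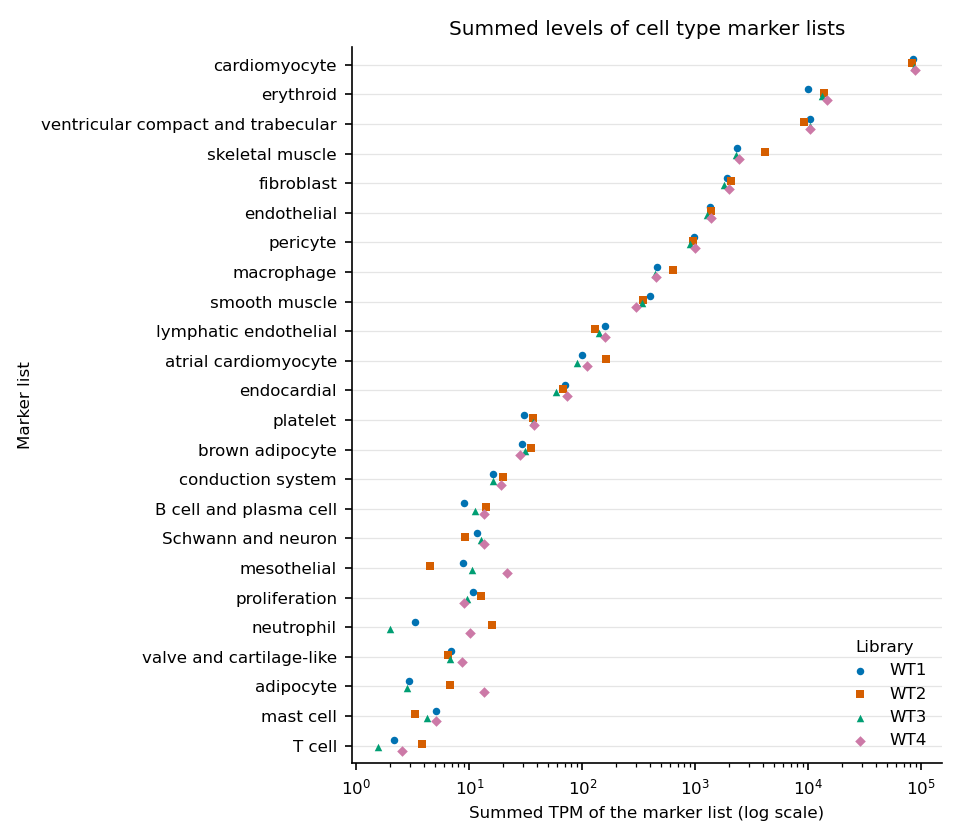
Summed TPM of 24 cell type marker lists in WT1 to WT4, on a logarithmic axis. The cardiomyocyte list lies at 83369 to 88568 TPM, and the lists for skeletal muscle and macrophages each have WT2 above the other libraries.

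Variation among the 4 libraries was measured on the authors' normalized counts as the coefficient of variation (CV, SD over mean) of the 11019 genes that averaged at least 100 counts. The median CV was 6.58%, with 4.35% and 9.96% at the 25th and 75th percentiles, and 346 genes (3.14%) had a CV over 20%. Counting error alone would give a median of 4.72%, and 2806 genes varied no more than their counting part. Highly expressed muscle genes lay on both sides of that median. Ttn had a CV of 2.05%, Pln of 2.67%, Mb of 2.94%, Atp2a2 of 3.09% and Myh6 of 4.60%, against 6.63% for Myl2, 14.7% for Tcap and 64.2% for Acta1. The 5 least variable genes with at least 1000 counts were Ralgapa1, Agfg1, Psmc3, Popdc2 and Add1, with CVs of 0.204% to 0.456%. All 5 lay below their counting parts of 1.42% to 3.14%, so this list cannot rank genes by stability. Ralgapa1, a regulator of Ral GTPases, had 3104, 3097, 3111 and 3110 normalized counts, closer together than its counting part of 1.83%.

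**Figure D4:**
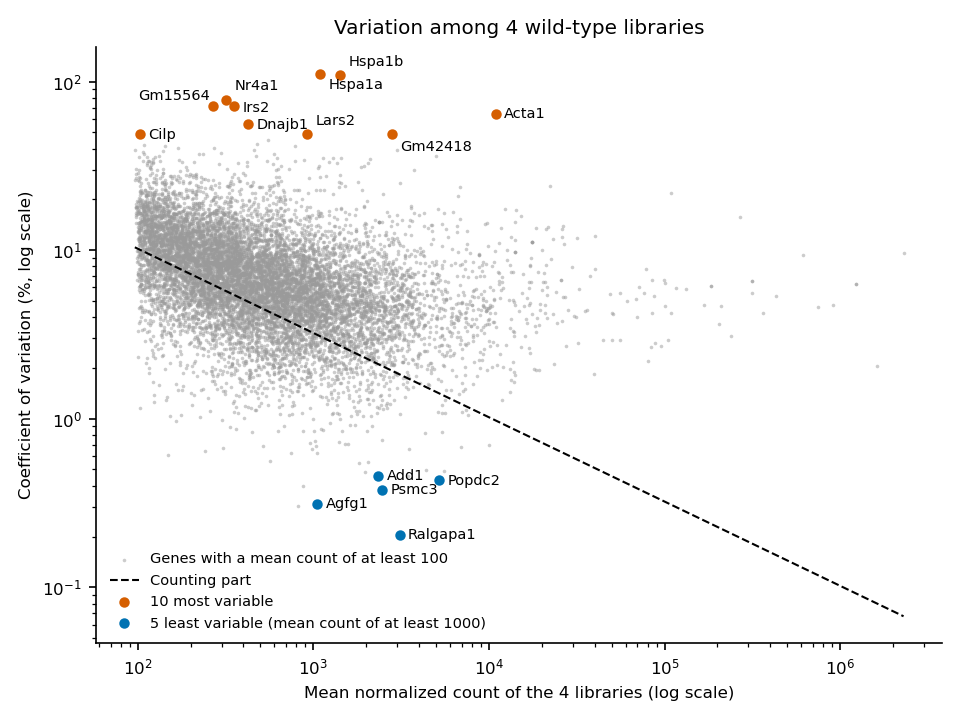
Coefficient of variation over WT1 to WT4 against the mean normalized count, for 11019 genes, on logarithmic axes; the dashed line is the counting part. Hspa1a and Hspa1b lie at 111% and 110%, and the 5 least variable genes lie below the dashed line.

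The 10 most variable genes fell into 3 patterns by library. Hspa1a and Hspa1b, which encode the inducible chaperone HSP70, had the largest CVs, 111% and 110%. Hspa1a had 301, 757, 2874 and 424 normalized counts in WT1 to WT4 and Hspa1b had 403, 983, 3739 and 574. WT3 was highest for both, and without it their CVs were 47.7% and 45.6%. Of the stretches of Hspa1a, 56.5% occur in Hspa1b, so the 2 genes are not independent. Their upstream windows, chr17:34972157-34972406 and chr17:34959239-34959488 on the minus strand of GRCm38.p6, are shown because they are near copies too.
Hspa1a: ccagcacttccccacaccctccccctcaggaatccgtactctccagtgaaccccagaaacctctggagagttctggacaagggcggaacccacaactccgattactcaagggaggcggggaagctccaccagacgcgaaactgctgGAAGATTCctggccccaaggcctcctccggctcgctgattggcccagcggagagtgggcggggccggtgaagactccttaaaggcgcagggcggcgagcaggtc
Hspa1b: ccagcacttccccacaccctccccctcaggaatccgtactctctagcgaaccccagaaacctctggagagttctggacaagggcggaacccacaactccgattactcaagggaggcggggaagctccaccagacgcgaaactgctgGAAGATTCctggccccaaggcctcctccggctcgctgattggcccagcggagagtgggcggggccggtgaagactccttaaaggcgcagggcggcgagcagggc
In these windows, 247 of 250 bases were identical, and both held GAAGATTC, a match to GAANNTTC, at 104 to 97 bases before the start. The co-chaperone Dnajb1, a gene on another chromosome, had 324, 223, 764 and 388 normalized counts, also highest in WT3. Nr4a1, an immediate early nuclear receptor, had 156, 123, 665 and 335, and Irs2, an adaptor of insulin signalling, had 212, 160, 723 and 327. All of these were highest in WT3 and Nr4a1, Irs2 and Dnajb1 were lowest in WT2. Without WT3 the CV was 26.7% for Dnajb1, 55.7% for Nr4a1 and 36.7% for Irs2.

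WT1 was highest for Gm42418 (4851, 2432, 2057 and 1920 normalized counts), Gm15564 (545, 251, 145 and 133) and Lars2 (1564, 910, 629 and 583), a mitochondrial leucyl-tRNA synthetase. In all 3 genes WT2 was second highest and WT4 lowest, and without WT1 their CVs were 12.4% for Gm42418, 36.8% for Gm15564 and 25.1% for Lars2. The exons of Gm42418 overlap an opposite-strand gene over 99.5% of their length, so its value is uncertain. The genes annotated as ribosomal RNA summed to 69.0, 40.1, 49.1 and 39.4 CPM, highest in WT1 as well, and their part in the values of the 3 genes was not tested. WT2 was highest for Acta1 (7346, 21464, 7349 and 7589 normalized counts) and for Cilp, a matrix protein of fibroblasts (70.9, 177, 79.8 and 82.3). Without WT2 the CV was 1.87% for Acta1 and 7.69% for Cilp.

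**Figure D5:**
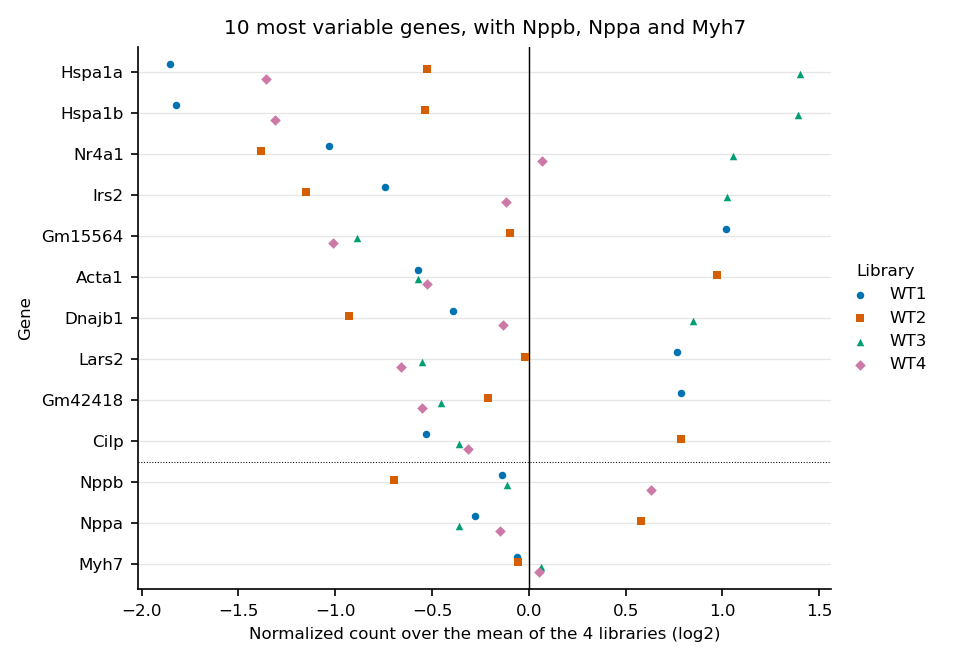
Normalized count of each of the 10 most variable genes, and of Nppb, Nppa and Myh7, over its own mean of the 4 libraries (log2), for WT1 to WT4. The HSP70 genes, Dnajb1, Nr4a1 and Irs2 have WT3 on the right, Gm42418, Gm15564 and Lars2 have WT1 on the right, and Acta1 and Cilp have WT2 on the right.

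Responsive gene families were then read library by library; members named here beyond the 2 highest of each list were chosen after their values were seen. Of 19 heat shock and chaperone genes, 9 were highest in WT3, against 27.5% of all genes; so were 6 of 10 cytochrome c oxidase isoform genes with 100 counts and 6 of 10 acyl-CoA dehydrogenase genes. Hsph1 had 996, 1115, 1967 and 1092 normalized counts, and Dnaja1 had 1752, 1522, 3159 and 1986. Of the 3 highest members by TPM, Cryab had a CV of 2.64%, Hsp90ab1 of 3.52% and Hspa8 of 12.0%. Of 15 immediate early genes with 100 counts, 12 were lowest in WT2, against 28.3% of all genes, among them Btg2 with 516, 428, 821 and 764 normalized counts. The highest members, Ccn1 and Jund, averaged 78.9 ± 10.6 and 63.7 ± 2.4 TPM.

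The circadian clock genes formed the family with the highest median CV among those read this way, 21.9%, and 9 of 17 members with 100 counts had a CV over 20%, against 3.14% of all genes. The lowest value was in WT4 for 12 of the 17, against 25.9% of all genes. Dbp, a clock output factor, had 1076, 1054, 581 and 434 normalized counts, Tef had 3686, 3793, 2721 and 2184, and Per3 had 1540, 1316, 1086 and 784. Clock itself ran the other way, with 1129, 1232, 1353 and 1674. It was 1 of 3 members highest in WT4, beside Nr1d1 (615, 676, 592 and 764) and Nfil3 (152, 156, 118 and 174). The sources used here give no hour of tissue collection, and its part in these values was not tested.

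The 19 collagen chain genes of the list summed to 1015, 1268, 1030 and 1257 TPM in WT1 to WT4, higher in WT2 and WT4 than in WT1 and WT3. Of 18 with 100 counts, 11 were highest in WT2, against 27.1% of all genes, and 6 in WT4, against 24.0%. The lowest value was in WT1 for 12 of them, against 22.1% of all genes. Col3a1, a fibrillar collagen, had 5471, 8623, 5863 and 6844 normalized counts. Col4a1, the basement membrane collagen that was highest of the list, averaged 331 ± 42.3 TPM and was highest in WT4. Over all 11019 genes, 595 (5.40%) had a single library set apart from the other 3 by more of the range than the critical value of Dixon's test for 4 samples. That library was WT2 for 136 genes where it was high and 88 where it was low, against 50 and 42 for WT1, 98 and 59 for WT3, and 62 and 60 for WT4.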

How the data were processed

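Total RNA from wild-type left ventricles was sequenced with a stranded kit, per the labels' protocols. The deposited raw counts give reads per gene for each library, and the deposited normalized counts (a signal, not whole reads) are the raw counts divided by 1 size factor per library, to within a relative spread of 9.86e-15. The submitters' processing notes name STAR, DESeq2 and mm10 without versions, and neither the counting program nor its strand setting is stated in the labels. The authors' table of genotype comparisons and the RE1-deficient columns were not analysed here.

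Gene names and lengths came from GENCODE M21, which matched 40254 of 41128 gene IDs. The 874 others held 0.0917% of the counts. TPM was the count over the merged exon length, scaled to a sum of 1000000 over protein-coding genes. The deposited counts summed to between 20284865 and 34742840 per library, and their depth limits the precision of low genes: counting intervals and the limit set by a count of 0 (3 counts) cover counting error only. Variation was the SD over the mean of the deposited normalized counts. The counting part is the CV that counting error alone would give. The procedure was tested on simulated data, where 92.5% of 200 planted variable genes were recovered among 11019. The planted genes were given a spread far above the single value used for all others. In the data only 7 genes had a CV over 50%, so this share does not measure how well real genes were ranked. A gene shares sequence when 100-base stretches of its exons occur in another gene. Promoter windows came from RefSeq (GRCm38.p6).

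The genes named are the 20 highest nuclear genes, the 13 mitochondrial protein genes, the 5 highest long non-coding RNAs, the first 2 of each family and marker list, both genes of each pair, the 10 most variable genes (mean count of at least 100) and the 5 least variable (at least 1000). Some genes and pairs that this rule names are not reported here. The members and lists were chosen with earlier results of these data known. A gene counts as detected from a mean of 1 TPM. Alternatives were other lengths, TPM denominators, filters, size factors and libraries left out. Python 3.11.15, R 4.3.3, edgeR 4.0.16 and DESeq2 1.42.0 were used.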

Additional observations from a re-analysis of the deposited data

Results flagged for a closer look

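A library was taken to stand apart when its gap to the nearest of the other 3 took up more of the whole range of the 4 values than the critical value of Dixon's test allows. Chance alone flags about 1 in 20 such groups. The rule picked out 18 of the 193 named genes with a mean of at least 100 counts, 3 of 45 pair shares and 5 of 24 marker sums, beside 5.40% of all 11019 genes. The share of all genes is close to that chance rate. The named set holds the most variable genes, chosen from the same values, so its share is in part set by that choice. Some flagged sums and pair shares contain a flagged gene, as the skeletal muscle sum contains Acta1, and are not separate findings.

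WT2 stood apart most often. Acta1 was high there, with a gap of 0.983 of the range, and with it the skeletal muscle sum (0.936). Lyz2 was high in WT2 (0.956), as was the macrophage sum that contains it (0.912). Cilp (0.892), Nppa (0.832), the liver-form oxidase subunit gene Cox6a1 (864 normalized counts against 773 to 779 in the others, 0.943) and the enolase gene Eno1 (2044 against 1828 to 1857, 0.869) were also high. Low in WT2 were the lymphatic regulator Prox1 (1417 against 1775 to 1832 normalized counts, 0.862), Camk2d (3191 against 3472 to 3525, 0.842), the Myl3 share of Myl3 and Myl4 (0.863) and the ventricular sum, led by Myl2 (0.903). The Myl3 share was 99.96% in WT2 against 99.98% in each of the others, and it rests on 106 Myl4 counts in all.

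WT3 was high for Pln (86657 normalized counts against 82009 to 82334 in the others, 0.930), mt-Co1 (979255 against 888548 to 900901, 0.864), the pyruvate kinase gene Pkm (19194 against 18429 to 18524, 0.875), the chaperone gene Hsp90ab1 (19290 against 17897 to 18081, 0.868) and the receptor gene Kit (144 against 134 to 135, 0.879). These differences were small beside the level of each gene. Kit also had few counts. At a mean of 146 normalized counts, as in Hcn4, the counting part of the CV is 8.43%, so counting error can give the gap of Kit. The gaps hold for the normalized counts and can differ on another scale. Pln had 3107, 3158, 3211 and 3134 CPM in WT1 to WT4, where the gap of WT3 was smaller, and was highest in WT1 by TPM. For mt-Co1 the gap was smaller by TPM (110151, 107309, 113242 and 108684), but WT3 stayed well above by CPM (33996, 34134, 36280.5 and 33953).

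WT4 was low for the transporter gene Slc2a1 (112 normalized counts against 151 to 156, 0.896), so that its pair share with Slc2a4 was high (0.879), for the topoisomerase gene Top2a (103 against 155 to 165, 0.839) and for Kcnj2 (1282 against 1347 to 1358, 0.851), and high for the valve and cartilage-like sum (0.858). WT1 was low for Scn4a (828 normalized counts against 1067 to 1086, 0.925) and the platelet sum (0.903), and high for the fatty acid regulator Ppara (1140 against 1070 to 1079, 0.867). The cause of these gaps was not tested.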

How the results depend on the processing

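The TPM denominator and the gene length both moved levels. With the longest transcript as length, 70 genes instead of 42 made 50% of the TPM, the mitochondrial share was 27.3% instead of 33.3%, and the cardiomyocyte sum was 97967 instead of 85929 TPM. With the median coding transcript, that share was 14.6%, the sum was 244994 TPM, 108 instead of 243 nuclear genes made 50% of the nuclear TPM, and 13 of the 20 highest genes stayed among the highest 20. With that length, shares moved by more than their SD over the libraries for 31 of 45 pairs and for 3 further pairs whose order turned. With the longest transcript they did so for 29, so small SDs do not cover the choice of length. The 3 pairs that turned had shares of 35.3% for Hk2, 35.2% for Eef1a2 and 45.3% for Rpl3l. Without genes that share over 50% of their stretches, 101 genes made 50% of the TPM, the mitochondrial share was 19.7% and the cardiomyocyte sum was 107988 TPM. That sum was 81135 TPM without genes overlapped by others (an alternative chosen after seeing the data), 128739 TPM over nuclear genes alone and 18222 TPM over all annotated genes. At 10 TPM, 7265 instead of 12505 genes were detected. The median CV of 6.58% was 9.20% at a mean count of 10, 4.68% at 1000 and 4.36% as edgeR's biological CV. With these 2 minimums 3233 and 36 instead of 346 genes had a CV over 20%, and 2 and 3 of the 10 most variable genes were the same.

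Leaving out each replicate in turn gave 42 to 44 and 239 to 249 genes for the 50% counts, 12479 to 12562 detected genes, a mitochondrial share of 33.0% to 33.7%, 19 to 20 shared highest genes, 43 to 43 pairs led by the first gene, a cardiomyocyte sum of 85049 to 86782 TPM, a median CV of 5.80% to 6.51%, 344 to 470 genes over 20% and 7 to 9 shared most variable genes. The CVs of 3, 2, 5 and 1 of the 10 most variable genes moved without replicates 1, 2, 3 and 4, with Nr4a1 at 96.6% without replicate 4. A CV counted as moved when it shifted by more than the SD of the 4 CVs found by leaving out each replicate. That limit grows with the shifts themselves, so these counts do not measure robustness. No paired analysis was possible because no groups were compared. Depth limits genes with few counts, whose CV is mostly counting error.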
